A study of Mus musculus with 21 samples.

Results

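The 10 genes described here encode core enzymes of the antioxidant defence of the mouse germ cells and preimplantation embryo: Sod1, Sod2, Prdx1, Prdx2, Prdx3, Prdx6, Gpx1, Gpx4, Cat and Txn1. They were taken by name, with earlier results of these data known. A transcript of the merged long-read set was given to a gene when an exon of both overlapped on the same strand in GENCODE vM21 (mm10). All 10 genes had such transcripts, which were 26 of the 22612 transcripts in the set, and the whole set held 14885 genes, 10917 of them annotated. The level of a gene is the summed TPM of its transcripts, where TPM is an abundance scaled for transcript length and for the library total. Of these genes 10 passed the filter on low values, which asked for 1 TPM or more in 2 or more of the libraries fitted. An alternative 3′ splice site of Sod2 was chosen by its measured use, which was known to vary between the stages of these libraries, so its values are a description and have no test.

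Short-read libraries were made for 7 stages, 2 libraries each, and each stage also had 1 long-read pool that mixed the cDNA of both batches. Sperm, labelled DBA/2J, came from the epididymis. Metaphase II oocytes, labelled C57/BL6J, came from superovulated females aged 3 to 5 weeks and were taken 20 h after the hCG injection. Embryos carried the label ♂DBA/2J x ♀C57/BL6J and were grown in KSOM medium to 24 to 26 h after hCG for the 1-cell stage, 46 to 48 h for the 2-cell, 54 to 58 h for the 4-cell, 68 to 70 h for the 8-cell and 94 to 96 h for the blastocyst. No label named a transgene, a deletion or a drug other than the hormones, and all libraries were amplified from pooled cells by the Smart-seq2 protocol.

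Superoxide, a by-product of respiration, is turned into hydrogen peroxide by superoxide dismutases, of which Sod1 works mainly in the cytosol and Sod2 in the mitochondrial matrix. Hydrogen peroxide is then removed by catalase (Cat) in peroxisomes, by glutathione peroxidases, which draw on glutathione, and by peroxiredoxins, most of which draw on a thioredoxin such as Txn1. Gpx4 reduces lipid hydroperoxides within membranes and has a mitochondrial form that becomes a structural protein of the sperm midpiece. Transcripts stored in the oocyte are degraded and the genome of the embryo is switched on around the 2-cell stage, and respiration rises towards the blastocyst.

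The sperm, oocyte and blastocyst libraries carried their markers. The 4 sperm markers (protamines and transition proteins) summed to 13520 and 13390 TPM in sperm and to at most 15.4 TPM in every other library, the 4 oocyte markers to 4423 and 15890 TPM in the oocyte, and the 4 blastocyst markers to 9357 and 35370 TPM in the blastocyst. Markers of other cells were also present in sperm. There the 4 leukocyte and blood markers summed to 5952 and 4887 TPM, with none of them at 0. Of 4 epididymis markers, Lcn5 and Rnase10 had no merged transcript. The other 2 summed to 2014 and 338 TPM in sperm, Crisp1 at 2006 and 335 TPM and Lcn8 at 8.01 and 2.19 TPM. The 2-cell libraries were unlike each other, with 2-cell markers at 16.6 and 342 TPM, oocyte markers at 71.1 and 691 TPM and blood markers at 21.0 and 386 TPM. The first did not stand out by its 2-cell markers, which summed to 18.4 TPM in the second 4-cell library. Most of the blood sum was Hba-a1, at 18.6 and 368 TPM, which also measured 95.5 and 145 TPM at the 4-cell stage. The 2-cell libraries had the widest replicate spread of any stage (a median gene SD of 0.978 on the log2 scale, against 0.191 at the 4-cell stage). None of 5 cumulus cell markers had a merged transcript. TPM values carry no read depth, so no counting error is given.

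The antioxidant genes together made up 0.0743 and 0.0844% of all TPM in the oocyte, 0.2315 and 0.0814% at the 1-cell stage and 0.137 and 0.190% at the 2-cell. They made up 0.431 and 0.547% in sperm and 0.578 and 0.699% in the blastocyst. Their order changed along the way. In the oocyte Prdx2 (mean 240 TPM), Sod1 (209 TPM) and Prdx1 (195 TPM) led, while Gpx1, Gpx4, Prdx3 and Cat were the 4 lowest, at 10.6, 6.41, 0.440 and 0.134 TPM. In the blastocyst Gpx1 (1324 TPM), Sod1 (1256 TPM), Sod2 (1206 TPM) and Gpx4 (1052 TPM) led, and Cat was still the lowest at 16.0 TPM. The order among these leading genes depends on the transcript set. With TPM over the transcripts of the blastocyst long-read pool alone, Sod1 had 2395 and 2452 TPM and Sod2 1223 and 4626 TPM. Gpx1 then had 917.5 and 1472 TPM and Gpx4 635.5 and 1277 TPM. Because the libraries are pools of cells, fewer cells with a transcript and less of it per cell cannot be told apart.

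**Figure D1:**
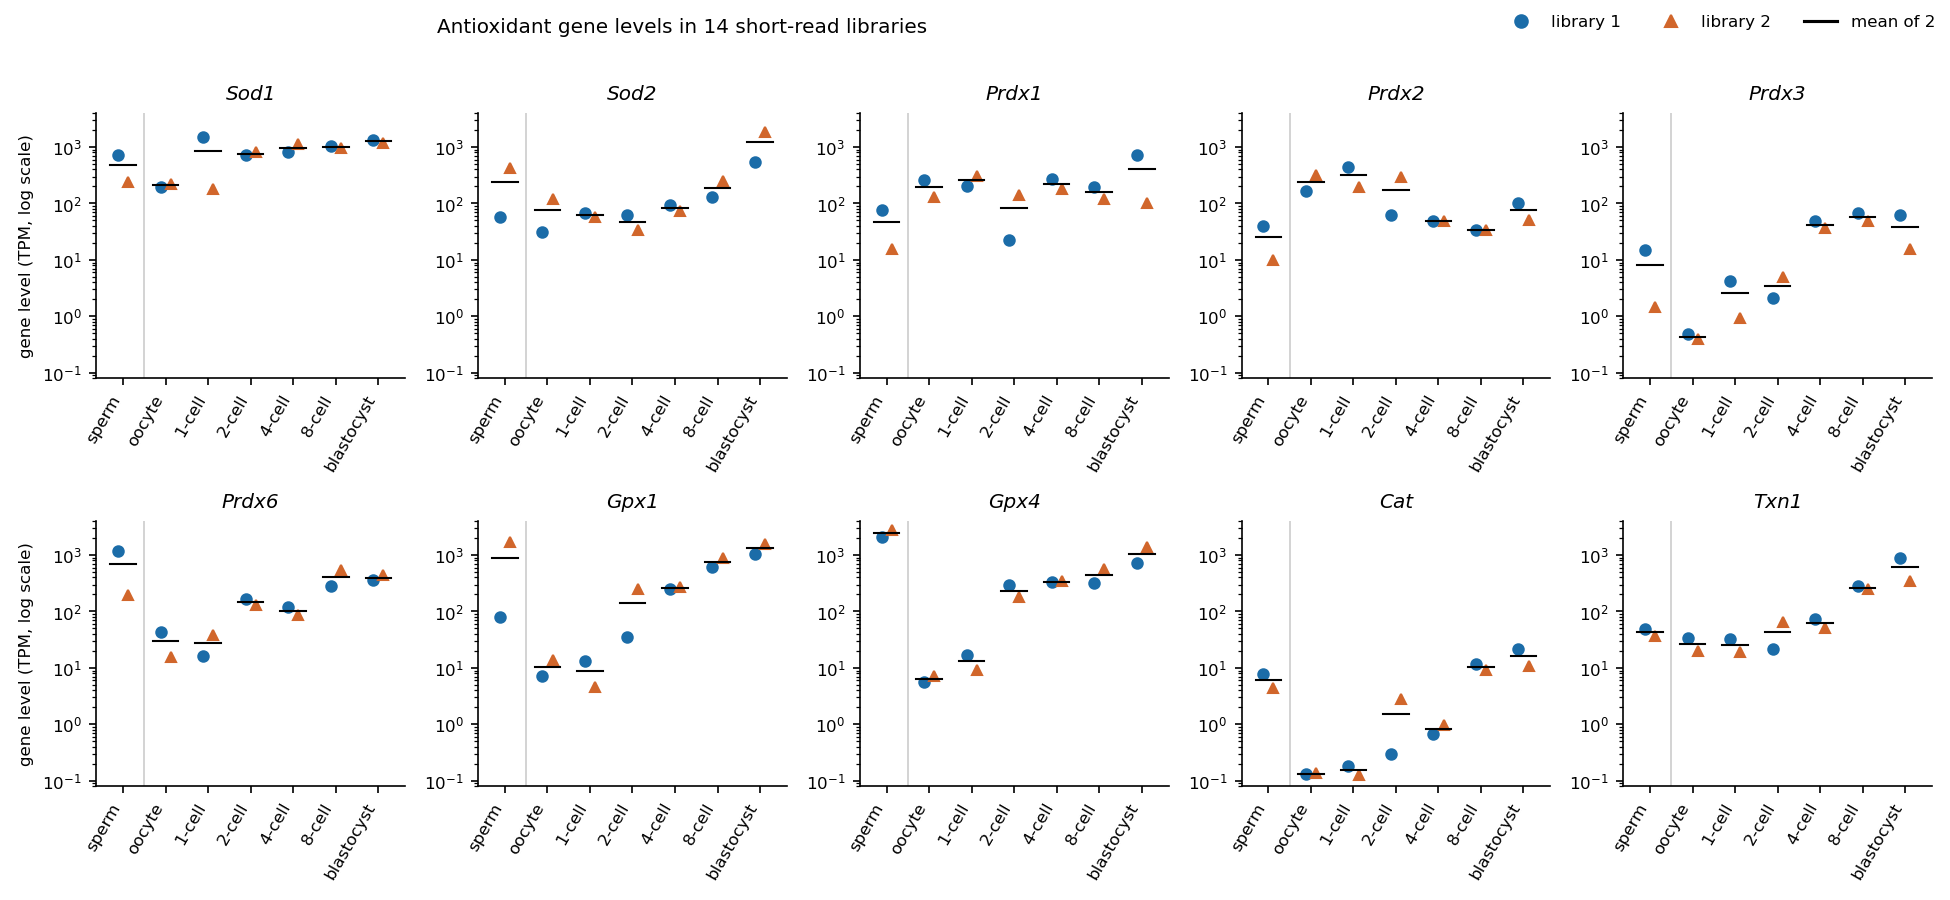
Gene level of each antioxidant gene (TPM, log axis) in the 2 libraries of each of 7 stages, with circles for library 1, triangles for library 2 and black lines for the mean of both. Gpx1 climbs from 7.34 and 13.9 TPM in the oocyte to 1058 and 1589 TPM in the blastocyst, Prdx2 is highest in the oocyte and 1-cell embryo, and Prdx1 shows no steady course.

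Sod1 was abundant at every stage. It measured 196 and 221 TPM in the oocyte, 1523 and 179 TPM at the 1-cell stage, 707 and 804 TPM at the 2-cell, 831 and 1111 TPM at the 4-cell, 1031 and 965 TPM at the 8-cell and 1332 and 1180 TPM in the blastocyst. The 1-cell libraries lay 8.49-fold apart and spanned the range of all the other stages. No step between adjacent stages passed the test for Sod1 (limma on log2(TPM + 1), Benjamini-Hochberg adjusted p between 0.787 and 0.962), and the step from oocyte to blastocyst, 2.58 ± 1.16 (SE) on the log2 scale, had an adjusted p of 0.0897. It fell to 0.0379 when all stages were given the same spread.

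Most of Sod1 was 1 transcript with the exon chain of Sod1-201 (chromosome 16, 90220549 to 90226331, plus strand), with 63.1 to 97.4% of the gene's TPM by stage. The next was a shorter transcript of 3 exons that starts at 90222862 and covers 51.5% of the coding bases, with 25.2% in the oocyte, 2.54% in the 1-cell embryo and 34.6% in sperm. Its share differed between the sperm libraries, at 43.6 and 8.02%.

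Sod2 was low until the 4-cell stage and high in the blastocyst. Its level was 31.8 and 119 TPM in the oocyte, 68.1 and 56.7 TPM at the 1-cell stage, 61.7 and 33.8 TPM at the 2-cell and 94.5 and 74.1 TPM at the 4-cell. It was 132 and 251 TPM at the 8-cell stage and 534 and 1878 TPM in the blastocyst. Both blastocyst libraries exceeded every other library, both 8-cell libraries exceeded all the earlier embryos and the oocyte, and the stages from oocyte to 4-cell overlapped their neighbours in order of level. From oocyte to blastocyst the gene rose by 4.00 ± 0.97 on the log2 scale (limma, adjusted p = 0.00507), 3.25 more than the median of all genes. Without the second blastocyst library the change was 3.09 with an adjusted p of 0.0646. The steps from the 4-cell to the 8-cell stage (1.11 ± 0.43, adjusted p = 0.063) and on to the blastocyst (2.45 ± 0.81, adjusted p = 0.122) did not pass. The former passed with quantile normalization (0.0273) and with multi-exon transcripts only (0.0306).

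The merged Sod2 transcripts differed in the leader before the start codon. The gene lies on the plus strand of chromosome 17 (13006846 to 13040063, mm10), and 3 transcripts begin with a leader exon of 118 bases (1 base shorter in one of them) that ends at 13006961, more than a kilobase upstream of the annotated start codon at 13008046. In TCONS_00008442 the leader exon is spliced straight to the exon at 13007861, as in the annotated Sod2-205. TCONS_00008443 and TCONS_00008444 add an exon in between that ends at 13007535. It begins at 13007394 in the first (142 bases, here the long exon) and at 13007444 in the second (92 bases, the short exon), so the alternative 3′ splice sites are 50 bases apart. Of the 6 introns of TCONS_00008443, 2 are not annotated, those on both sides of this exon. All 3 forms cover 100% of the annotated coding bases, so the difference lies in the leader and not in the protein.

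The acceptor that all 3 forms share, and the junction that skips the optional exon, are shown here. Among the merged Sod2 transcripts only TCONS_00008442 has that junction. The alternative acceptors of the optional exon are not shown. Capitals mark exon bases after the acceptor at 13007861, and the acceptor is read from chr17:13007846-13007875 on the plus strand (RefSeq, GRCm38.p6, the assembly of mm10).
Sod2 shared acceptor: acgttgccttcccagGATGCCGCTCCGTTA
Sod2-205 junction of the leader exon and the same acceptor: tgaacctctgaacctGATGCCGCTCCGTTA
In the junction, read from the annotated transcript, the lower-case bases are the last 15 of the leader exon. The acceptor itself lies inside the first exon of Sod2-201, the annotated form without the leader exon, which starts at 13007817.

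**Figure D2:**
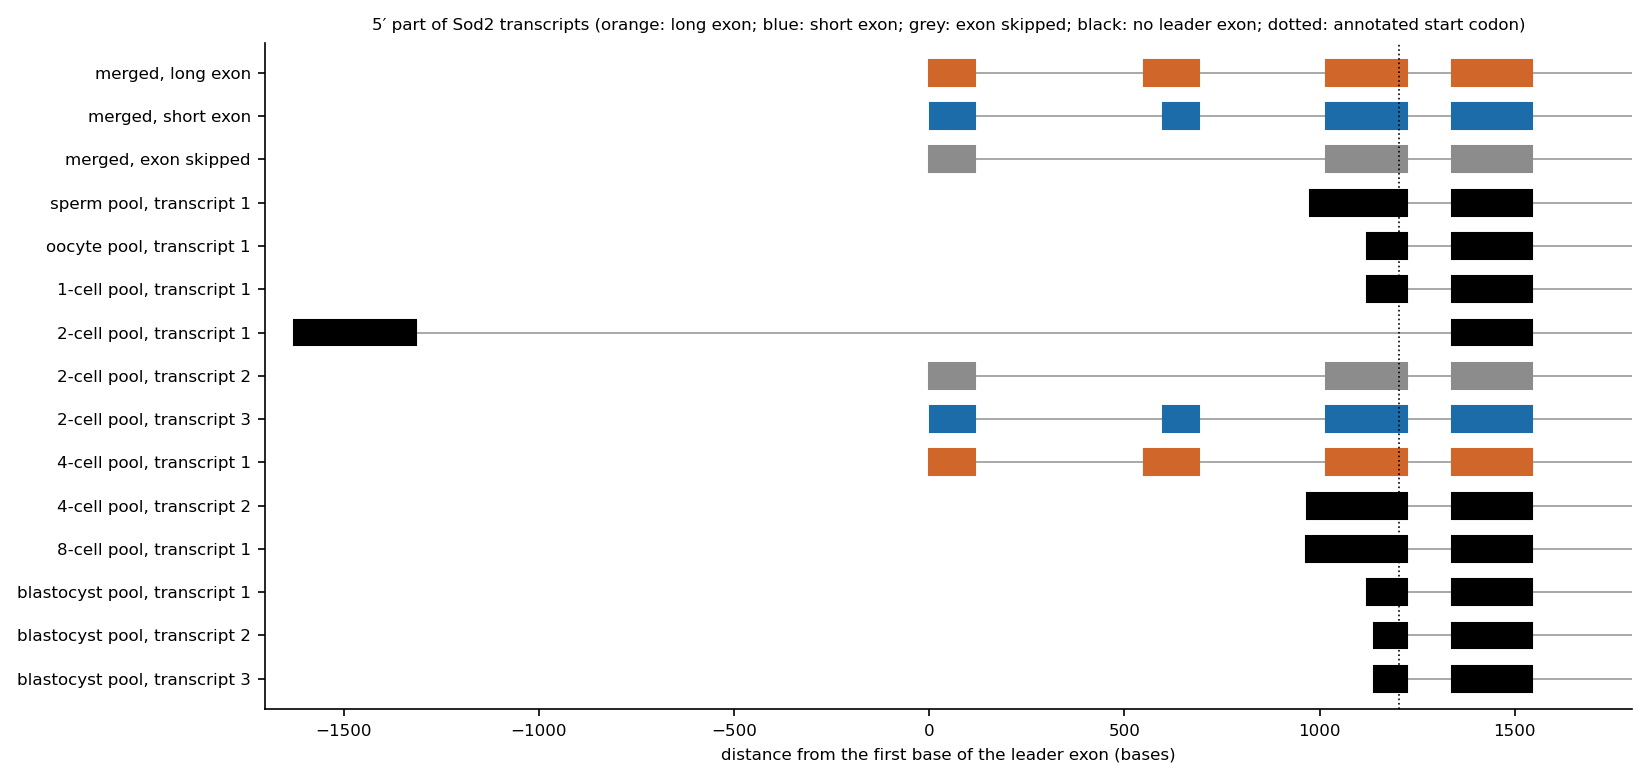
The 5′ part of the 3 merged Sod2 forms and of the Sod2 transcripts of each long-read pool, drawn to scale against the distance in bases from the first base of the leader exon (boxes are exons, thin lines introns, the dotted line the annotated start codon 1202 bases downstream). The short exon and the skipping form are from the 2-cell pool, the long exon is from the 4-cell pool, and the pools of the other stages hold transcripts without the leader exon. A 3-exon transcript of the 2-cell pool that starts far downstream is not drawn.

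Over the merged transcript set, the use of the optional exon varied with stage. The long form was listed at 0 TPM in both oocyte and both 1-cell libraries. It measured 46.3 and 14.1 TPM at the 2-cell stage, 24.4 and 31.2 TPM at the 4-cell, 7.89 and 21.6 TPM at the 8-cell and 6.01 and 19.2 TPM in the blastocyst. The short form ran the other way, with 14.9 and 48.9 TPM in the oocyte, 35.0 and 38.4 TPM at the 1-cell stage, 2.74 and 2.32 TPM at the 2-cell, 15.8 and 3.33 TPM at the 4-cell, 26.9 and 57.3 TPM at the 8-cell and 43.6 and 252 TPM in the blastocyst.

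Expressed as the share of the short exon among both exon-containing forms, the oocyte and 1-cell libraries stood at 100%, the 2-cell libraries at 5.59 and 14.1%, the 4-cell libraries at 39.4 and 9.65%, the 8-cell libraries at 77.3 and 72.6% and the blastocyst libraries at 87.9 and 92.9%. The share was thus lowest at the 2-cell and 4-cell stages, whose libraries overlapped each other and no other stage. In sperm it was 52.9 and 62.0%. Over the merged set, the form that skips the exon held 53.3 and 58.9% of the leader forms in the oocyte. It held 16.1 and 46.3% at the 2-cell stage and 90.7 and 85.6% in the blastocyst. That set gave it most of the blastocyst rise, with 484 and 1606 TPM there against 17.0 and 70.1 TPM in the oocyte. Neither the oocyte nor the blastocyst long-read pool held this form.

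**Figure D3:**
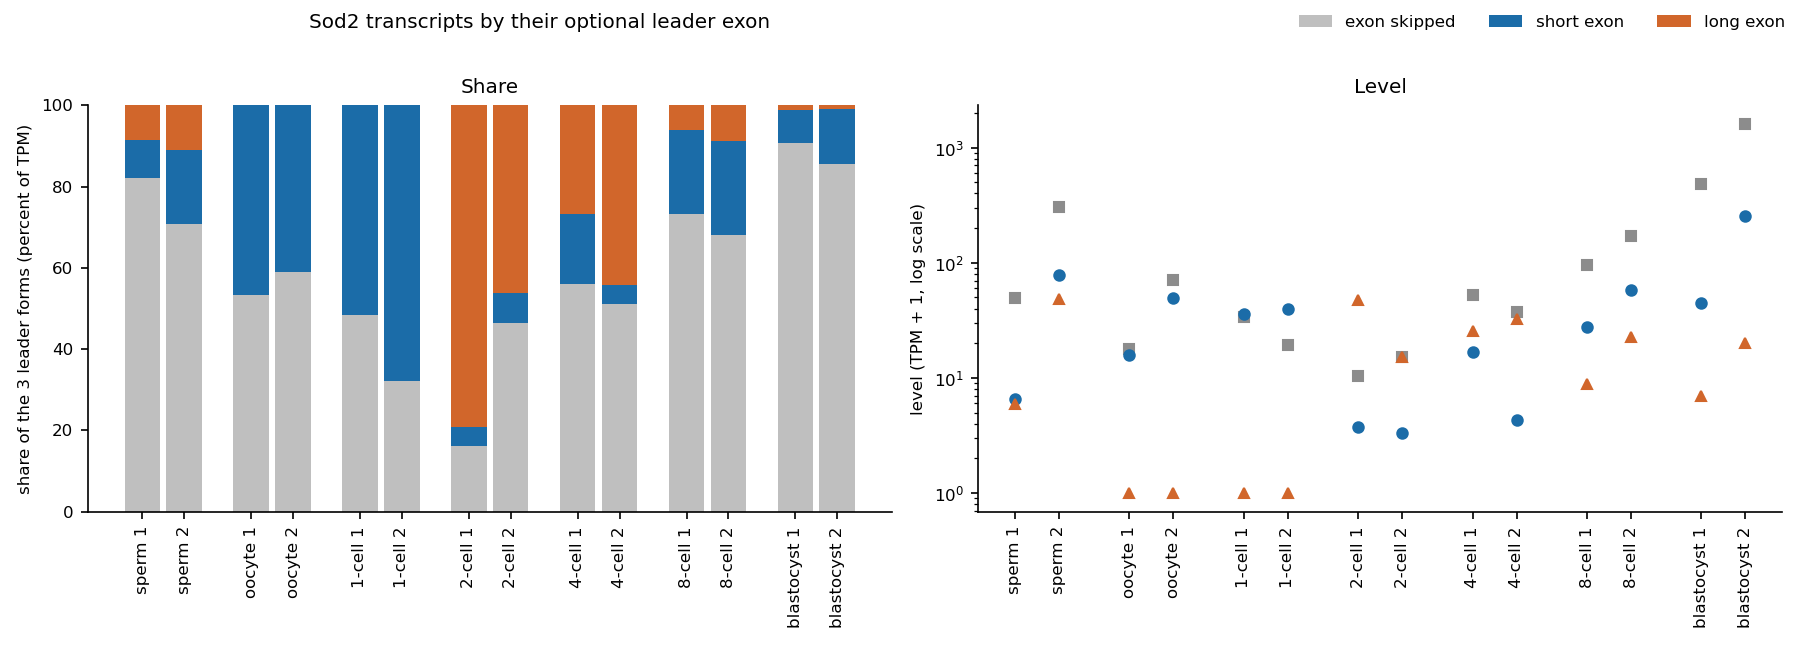
Left, the share of the 3 Sod2 leader forms in each library (percent of their TPM, stacked to 100). Right, the level of each form (TPM + 1, log axis) with squares for the exon skipped, circles for the short exon and triangles for the long exon. Orange is absent in the oocyte and 1-cell libraries, takes 79.2 and 46.1% at the 2-cell stage and 1.13 and 1.02% in the blastocyst.

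The long reads set limits on these shares. The 2-cell pool held 4 Sod2 transcripts, among them the short and the skipping form and not the long one. Over the merged set, by contrast, the long form took 79.2 and 46.1% of the leader forms at the 2-cell stage. The skipping form took 16.1 and 46.3% there, so the long form was the main one in the first 2-cell library only. The 4-cell pool held the long form, not the other two, and a transcript without the leader exon that starts at 13007811. The pools of sperm, oocyte, 1-cell embryo, 8-cell embryo and blastocyst held none of the 3 and only transcripts that start between 13007808 and 13007982. Those of sperm (13007819) and the 8-cell embryo (13007808) start near the annotated start of Sod2-201. Those of the oocyte, 1-cell embryo and blastocyst start at 13007964 or 13007982, within its first exon. None of the 5 merged Sod2 transcripts starts between 13007808 and 13007982. Short reads of such transcripts could therefore only be given to forms that carry the leader exon or to 2 minor ones. When the TPM was computed over the transcripts of the own stage, the form starting at 13007964 had 69.0 and 327 TPM in the oocyte, the one starting at 13007982 with the nearer 3′ end had 979.5 and 3684 TPM in the blastocyst, and the short form had 86.4 and 20.0 TPM at the 2-cell stage. With these values the short share of both exon forms was 100 and 100% at the 2-cell stage and 0 and 0% at the 4-cell stage, each pool holding 1 of the 2, so the 2-cell share ran opposite to that over the merged set. The skipping form then held 26.1 and 56.97% of the leader forms at the 2-cell stage and the short form 73.9 and 43.0%, against 4.69 and 7.59% for the short form over the merged set. The low short share at the 2-cell stage, and the blastocyst rise given to the skipping form, thus depend on the transcript set used.

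The genes whose levels ran most like Sod2 over the 14 libraries were Arpc2, a subunit of the actin-nucleating Arp2/3 complex (Pearson r = 0.959 on log2(TPM + 1)), Dtd2, a deacylase of mischarged transfer RNA (r = 0.946), and Fh1, the fumarate hydratase of the citric acid cycle (r = 0.927), out of 14397 genes compared. The libraries of a stage share that stage, so the 14 points are not independent. Arpc2 measured 109 and 336 TPM in the oocyte and 1083 and 2360 TPM in the blastocyst, with the second library higher in both, as it was for Sod2. Of the other antioxidant genes Gpx1 came nearest to Sod2 (r = 0.717) and Prdx2 was farthest (r = -0.462).

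Cat was the lowest of the antioxidant genes from the oocyte to the blastocyst. Its level was 0.131 and 0.137 TPM in the oocyte, 0.186 and 0.127 TPM at the 1-cell stage, 0.303 and 2.76 TPM at the 2-cell and 0.678 and 0.971 TPM at the 4-cell. It then measured 11.6 and 9.13 TPM at the 8-cell stage and 21.4 and 10.7 TPM in the blastocyst. Both 8-cell libraries lay above every earlier one, and the 8-cell and blastocyst libraries overlapped. From the 4-cell to the 8-cell stage Cat rose by 2.63 ± 0.29 on the log2 scale (limma, adjusted p = 1.37e-05), which is 12.5-fold between the mean TPM, and it passed under every alternative tried, with adjusted p between 2.4e-07 and 0.0321. The scale with 1 TPM added understates the change of a gene this low. All of its TPM came from 1 transcript with the exons of Cat-201 (chromosome 2, 103454004 to 103485186, minus strand). The blastocyst long-read pool held that transcript, the sperm pool held another Cat transcript that matched no merged one, and the pools from oocyte to 8-cell held none.

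Gpx1 and Gpx4 rose from low levels in the oocyte to some of the highest in the blastocyst. Gpx1, the abundant cytosolic and mitochondrial enzyme, measured 7.34 and 13.9 TPM in the oocyte, 13.2 and 4.53 TPM at the 1-cell stage, 35.3 and 249 TPM at the 2-cell, 252 and 273 TPM at the 4-cell, 621 and 882 TPM at the 8-cell and 1058 and 1589 TPM in the blastocyst. After the overlapping oocyte and 1-cell libraries, each stage lay above the one before it without overlap. The rise from the 4-cell to the 8-cell stage was 1.50 ± 0.41 (limma, adjusted p = 0.0123), and that from oocyte to blastocyst was 6.87 ± 0.92 (adjusted p = 0.000107), a 125-fold difference of the mean TPM. Without the second 8-cell library the former was 1.24 with an adjusted p of 0.134. The step from 1-cell to 2-cell, 3.42 ± 1.12, had an adjusted p of 0.0567 and passed with a pseudocount of 0.1 (0.0358). The transcript with the exons of Gpx1-201 held 98.2 to 100% of the gene by stage.

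Gpx4 measured 5.61 and 7.21 TPM in the oocyte and 17.2 and 9.29 TPM at the 1-cell stage, and then 289 and 178 TPM at the 2-cell, 336 and 342 TPM at the 4-cell, 325 and 573 TPM at the 8-cell and 731 and 1372 TPM in the blastocyst. The 2-cell libraries lay above all oocyte and 1-cell libraries, while the 4-cell and 8-cell libraries overlapped. Gpx4 rose by 4.06 ± 1.02 from the 1-cell to the 2-cell stage (limma, adjusted p = 0.0188), 17.7-fold between the means and 3.22 above the median of all genes. With one library left out the change was between 3.65 and 4.47, with an adjusted p of 0.051 without the second 1-cell library, 0.164 without the first 2-cell library and 0.119 without the second. The rise from oocyte to blastocyst was 7.09 ± 0.84 (adjusted p = 5.33e-05). A named near copy, Gpx4-ps2, also had a merged transcript, so reads of the gene could be split with it.

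The transcripts of Gpx4 divided by start site and by an exon. The main one, TCONS_00001730 (chromosome 10, 80053565 to 80056440, plus strand), has the exons of Gpx4-202 and held 74.6 to 100% of the gene's TPM by stage. TCONS_00001733 starts 446 bases downstream at 80054011, 26 bases before the annotated first exon of Gpx4-201, whose start codon at 80054049 it includes. Its first exon ends at 80054170, as in Gpx4-205, which leaves out the last 130 bases of the Gpx4-201 first exon. Gpx4-205 is annotated as a processed transcript, with no start codon. TCONS_00001733 covers 629 of the 759 coding bases of Gpx4-201, and whether it encodes a protein from that start codon was not tested. This transcript measured 521 and 350 TPM in sperm and at most 8.78 TPM in any other library.

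The sequences around both starts are shown because the sperm-abundant transcript begins at the downstream one. Each runs 5′ to 3′ on the plus strand (RefSeq, GRCm38.p6), and capitals begin at the first base of the transcript. The main start is read from chr10:80053365-80053594 and the downstream start from chr10:80053811-80054040.
Gpx4 main start: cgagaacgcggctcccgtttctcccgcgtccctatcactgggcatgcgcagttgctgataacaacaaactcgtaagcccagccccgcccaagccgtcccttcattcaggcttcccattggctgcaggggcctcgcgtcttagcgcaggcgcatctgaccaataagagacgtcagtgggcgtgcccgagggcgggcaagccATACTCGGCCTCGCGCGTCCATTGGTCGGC
Gpx4 downstream start: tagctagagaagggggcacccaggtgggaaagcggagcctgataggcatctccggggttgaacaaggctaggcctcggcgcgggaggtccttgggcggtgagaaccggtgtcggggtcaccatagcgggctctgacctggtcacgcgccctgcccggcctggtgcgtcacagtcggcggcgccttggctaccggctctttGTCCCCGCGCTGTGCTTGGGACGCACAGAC

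TCONS_00001732 also starts in the first exon of Gpx4-202, 38 bases after its start codon began, and lacks an exon of 145 bases. It was listed at 0 TPM in the oocyte and 1-cell libraries and measured 23.2 and 81.2 TPM at the 2-cell stage, 11.2 and 17.7 TPM at the 4-cell, 1.11 and 5.48 TPM at the 8-cell and 3.90 and 4.97 TPM in the blastocyst. That is 8.03 and 45.6% of the gene in the 2-cell libraries and at most 5.16% in later ones. It was the only Gpx4 transcript of the 2-cell long-read pool. From the 1-cell to the 2-cell stage it rose by 5.48 ± 1.15 (limma over 20250 transcripts, adjusted p = 0.0125), and from the 4-cell to the 8-cell stage it fell by 2.03 on the log2 scale (SE 0.45, adjusted p = 0.00444). The rise had an adjusted p of 0.0532 without the first 2-cell library and 0.148 without the second, and the fall, -1.22 without the first 8-cell library, one of 0.0722 there and 0.196 with equal spread.

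**Figure D4:**
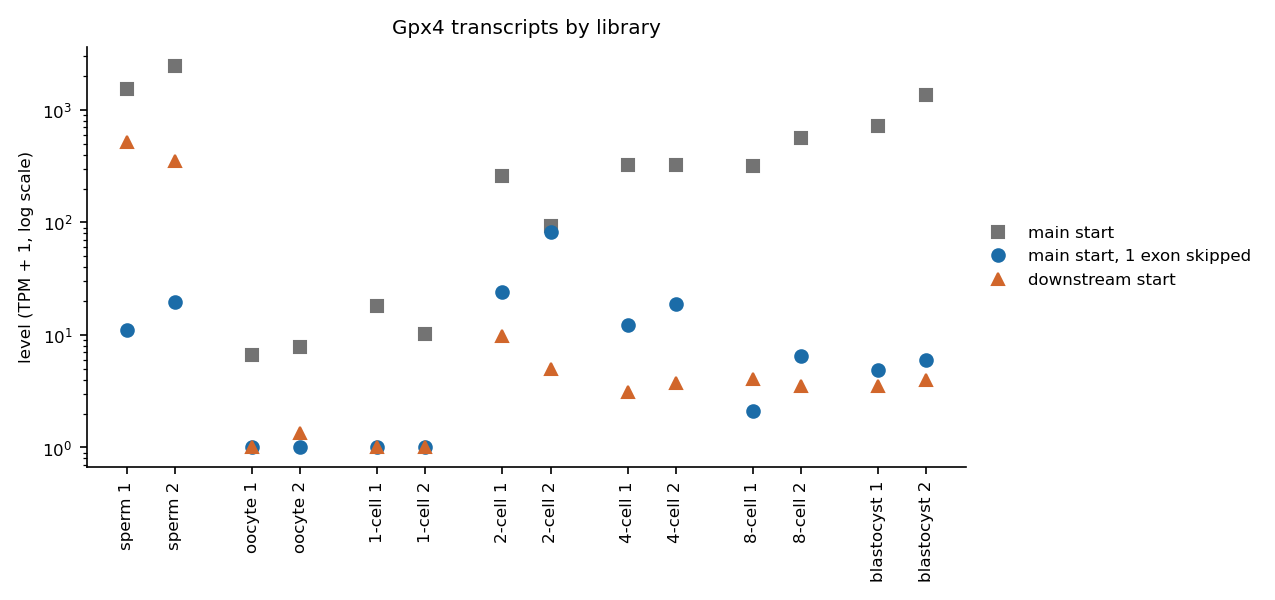
Level of 3 Gpx4 transcripts (TPM + 1, log axis) in each library, with squares for the main start, circles for the form that lacks 1 exon and triangles for the downstream start. The downstream start stands at 521 and 350 TPM in sperm, and the form lacking the exon reaches 81.2 TPM in the second 2-cell library, close to the 92.7 TPM of the main form there.

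Of the peroxiredoxins, Prdx3 and Prdx6 rose, and Prdx1 and Prdx2, the most abundant ones of the oocyte, did not pass a test between embryonic stages. Prdx3, the mitochondrial enzyme, measured 0.488 and 0.393 TPM in the oocyte, 4.20 and 0.931 TPM at the 1-cell stage, 2.13 and 4.90 TPM at the 2-cell, 48.3 and 36.2 TPM at the 4-cell, 67.4 and 48.3 TPM at the 8-cell and 61.5 and 15.3 TPM in the blastocyst. All libraries from the 4-cell stage on lay above all earlier ones of the embryo and oocyte. From oocyte to blastocyst Prdx3 rose by 4.47 ± 0.90 (limma, adjusted p = 0.00154), 3.73 above the median of all genes. The step from 2-cell to 4-cell, 3.32 ± 1.01, had an adjusted p of 0.228, and one of 0.0463 after quantile normalization. All of the TPM of Prdx3 came from 1 merged transcript, in which 6 of 7 introns are annotated.

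Prdx6, which works with 1 active cysteine and also repairs phospholipids, measured 44.1 and 15.9 TPM in the oocyte, 16.5 and 38.0 TPM at the 1-cell stage, 164 and 132 TPM at the 2-cell and 118 and 88.2 TPM at the 4-cell. It was 281 and 542 TPM at the 8-cell stage and 354 and 437 TPM in the blastocyst, and the libraries of these last stages overlapped each other and no earlier stage from the oocyte on. The rise from the 4-cell to the 8-cell stage was 1.93 ± 0.42 (limma, adjusted p = 0.00289), and without the second 8-cell library it was 1.45 with an adjusted p of 0.0706. From oocyte to blastocyst it was 3.84 ± 0.94 (adjusted p = 0.00508). Prdx6-202 held 85.0 to 97.2% of the gene by stage, and Prdx6-201 had its largest share, 15.0%, at the 2-cell stage. Prdx6b, a near copy, also had a merged transcript.

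Prdx2 measured 166 and 315 TPM in the oocyte, 436 and 199 TPM at the 1-cell stage, 61.4 and 290 TPM at the 2-cell, 48.3 and 49.9 TPM at the 4-cell, 33.5 and 34.6 TPM at the 8-cell and 101 and 51.2 TPM in the blastocyst. The 4-cell and 8-cell libraries lay below all oocyte, 1-cell and 2-cell libraries, with no overlap. The change from oocyte to blastocyst was -1.65 ± 0.87 (limma, adjusted p = 0.143). The transcripts with the exon chains of Prdx2-201 and Prdx2-203 held 69.9 to 89.3% and 10.7 to 29.9% of the gene by stage. They differ in their start and in the acceptor of the second exon, at 84970240 and 84970152.

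Prdx1 measured 258 and 132 TPM in the oocyte, 206 and 307 TPM at the 1-cell stage, 22.9 and 143 TPM at the 2-cell, 269 and 181 TPM at the 4-cell, 197 and 118 TPM at the 8-cell and 715 and 103 TPM in the blastocyst. All adjacent stages in its order of levels overlapped, and the blastocyst libraries lay above and below those of the oocyte. Its largest step in the embryo, from 1-cell to 2-cell, was -2.11 ± 1.28 (limma, adjusted p = 0.304). Prdx1-204 held 87.2 to 99.4% of it by stage. Prdx1-202 had its largest mean share, 11.7%, at the 2-cell stage, and held 1.30 and 37.5% in the sperm libraries. An antisense merged transcript reached 50.2 TPM, and the libraries do not keep the strand, so reads of both cannot be told apart.

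Txn1, a thioredoxin that reduces peroxiredoxins, was a single transcript with the exons of Txn1-201. It measured 33.9 and 19.9 TPM in the oocyte, 31.9 and 18.9 TPM at the 1-cell stage, 21.5 and 65.1 TPM at the 2-cell, 74.5 and 52.0 TPM at the 4-cell, 280 and 251 TPM at the 8-cell and 870 and 351 TPM in the blastocyst. The 8-cell libraries lay above all earlier ones and below both of the blastocyst. Txn1 rose by 2.07 ± 0.38 from the 4-cell to the 8-cell stage (limma, adjusted p = 0.000949) and by 4.36 ± 0.86 from oocyte to blastocyst (adjusted p = 0.00138). Each library left out in turn kept both calls, and with all stages given the same spread the former had an adjusted p of 0.189.

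Counted over the 10 genes, the change from oocyte to blastocyst was the widest. Of the 10, 7 rose and none fell (Sod2, Prdx3, Prdx6, Gpx1, Gpx4, Cat and Txn1). Of all 13465 genes tested 41.8% were called, 26.9% as higher and 14.9% as lower. The median change was 3.92 on the log2 scale for the antioxidant genes and 0.75 for all genes. Without the second blastocyst library 6 of the 7 were called, Sod2 being lost. These libraries enter the steps between adjacent stages as well, so the counts are not independent. The 10 genes were chosen with earlier results of these data known. Their counts and medians beside those of all genes are therefore a description and not a test of the set.

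From the oocyte to the 1-cell stage none of the 10 was called by limma, none had an unadjusted p under 0.05, and 3.39% of all genes were called, 3.2% as higher and 0.186% as lower. From the 1-cell to the 2-cell stage 1 was called, Gpx4, 3 had an unadjusted p under 0.05 (Prdx6, Gpx1 and Gpx4), and 13.9% of all genes were called, 12.8% as higher and 1.14% as lower. The median of all genes shifted by 0.84 between these stages, and Prdx3, Cat and Txn1, with changes of 0.44, 0.94 and 0.59 that did not pass, turned to -0.99, -0.26 and -0.12 after quantile normalization. From the 2-cell to the 4-cell stage none was called, 1 had an unadjusted p under 0.05 (Prdx3), and 0.0149% of all genes were called, 0.00743% in each direction.

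From the 4-cell to the 8-cell stage 4 of the 10 rose and none fell (Prdx6, Gpx1, Cat and Txn1). Of all genes 34.2% were called, 8.42% as higher and 25.8% as lower. The median change was 0.77 for the antioxidant genes and -0.39 for all genes. With equal spread for all stages 1 of the 4 was called, Cat, and without the second 8-cell library 2 were, Cat and Txn1. From the 8-cell stage to the blastocyst none was called, 1 had an unadjusted p under 0.05 (Sod2), and 3.38% of all genes were called, 1.37% as higher and 2.01% as lower. The median change of all genes was -0.24 in that step and 0.20 from the oocyte to the 1-cell stage.

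**Figure D5:**
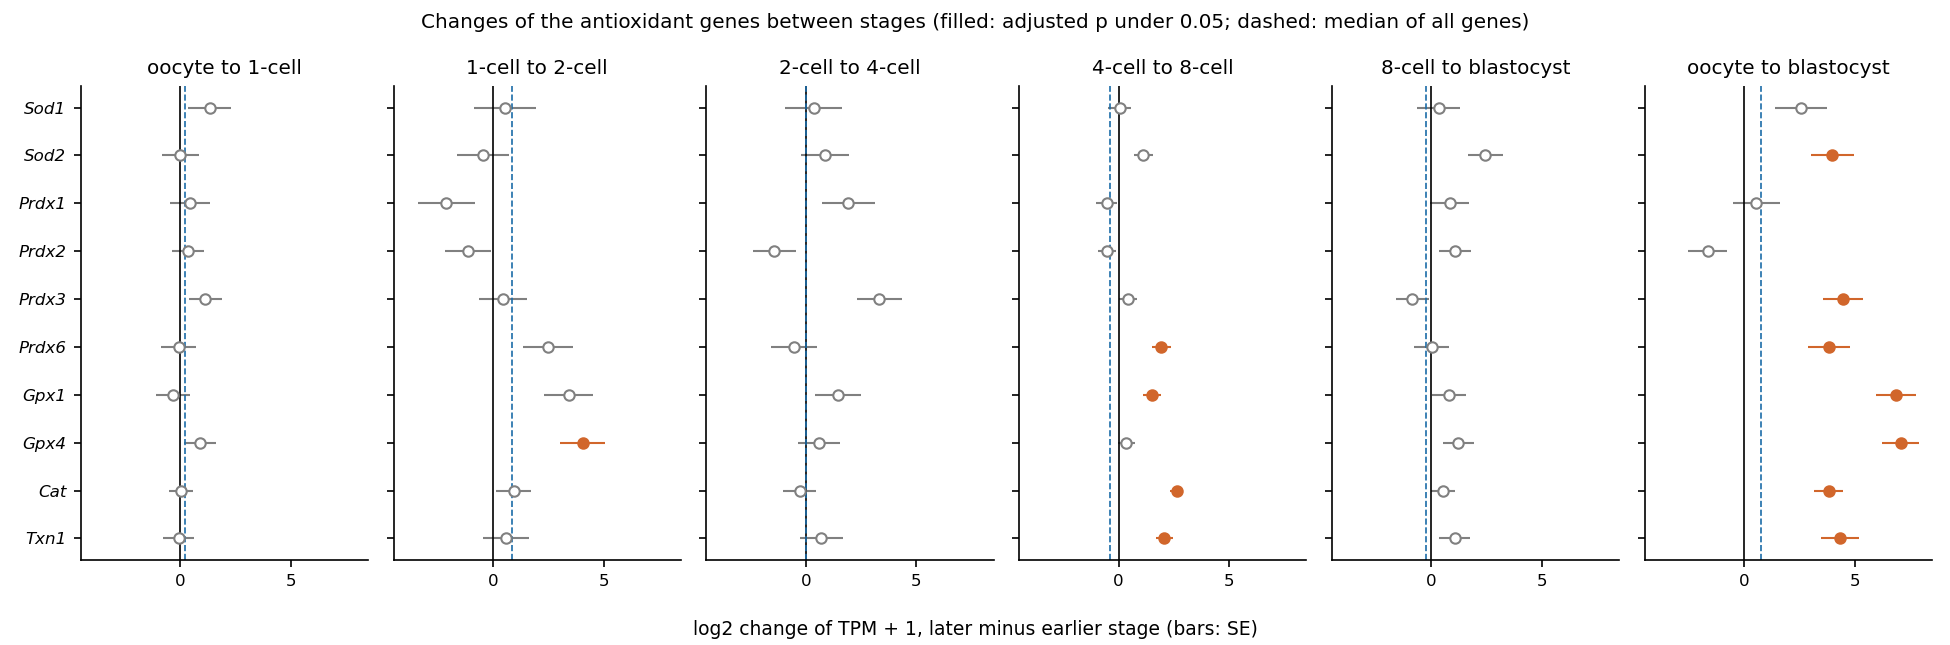
Change of each antioxidant gene between stages (log2 of TPM + 1, later minus earlier stage, with bars for the SE), filled where the limma adjusted p is under 0.05, with a dashed line at the median change of all genes. The filled points are 1 from 1-cell to 2-cell (4.06 for Gpx4), 4 from 4-cell to 8-cell (1.50 to 2.63) and 7 from oocyte to blastocyst (3.83 to 7.09).

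At the level of transcripts, 20 of the 21 that belong to genes other than Sod2 passed the filter on low values, and 8 of their 100 tests between adjacent stages were called, beside 9.65% over all transcripts and steps. These were both Gpx4 forms with a changed start or exon from 1-cell to 2-cell (11.2% of all transcripts called), and 6 from 4-cell to 8-cell (31% called), 5 higher (both of Prdx6 and those of Gpx1, Cat and Txn1) and the Gpx4 form that lacks an exon lower. None was called in the other steps, where 0, 2 and 0 had an unadjusted p under 0.05 and 2.45, 0.00494 and 3.6% of all transcripts were called. The downstream-start form of Gpx4 rose by 2.81 ± 0.71 from 1-cell to 2-cell (limma, adjusted p = 0.0254), to 8.78 and 4.02 TPM. Leaving out any 1 of the 1-cell or 2-cell libraries ended that call (adjusted p between 0.0609 and 0.186), and leaving out any 1 of the 4-cell or 8-cell libraries ended that of the Gpx1 transcript (between 0.0506 and 0.178). Prdx6-202 was lost without the second 8-cell library (adjusted p = 0.108), while Prdx6-201 and the transcripts of Cat and Txn1 were called with each library left out. With equal spread for all stages 5 of the 6 calls from 4-cell to 8-cell were lost (adjusted p between 0.156 and 0.484), all but that of Cat.

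Sperm differed from the oocyte in 5 of the 10 genes. Gpx4 was the highest of them, with 2065 and 2822 TPM in sperm against 5.61 and 7.21 TPM in the oocyte, 8.36 ± 1.01 higher on the log2 scale (limma over 14397 genes, adjusted p = 4.65e-05). Prdx6 (1194 and 197 TPM), Gpx1 (79.3 and 1714 TPM) and Cat (7.68 and 4.44 TPM) were higher and Prdx2 (40.5 and 10.1 TPM) was lower in sperm, with adjusted p of 0.013, 0.0072, 0.0155 and 0.0188. Of all genes 39.2% were called, 28.3% as higher in sperm and 10.9% as lower, with a median change of 0.91. Gpx1 was higher in the second sperm library and Prdx6 in the first.

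Only Gpx4 of these 5 was called with every library left out in turn. Without the first sperm library Prdx6 and Cat were lost (adjusted p = 0.206 and 0.144), without the second Prdx2, Gpx1 and Cat (0.243, 0.207 and 0.0716), and without the second oocyte library Prdx2 and Prdx6 (0.0661 and 0.0589). The remaining genes in sperm were Sod1 at 724 and 245 TPM, Sod2 at 58.6 and 426 TPM, Prdx1 at 76.6 and 15.6 TPM, Prdx3 at 15.1 and 1.48 TPM and Txn1 at 48.5 and 36.6 TPM. The leukocyte, blood and epididymis markers given above were present in these libraries, with Cd52 at 3952 and 333 TPM and Hba-a1 at 1803 and 4384 TPM, and their part in the sperm levels was not tested.

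The long-read pools of the oocyte and the 1-cell embryo held transcripts of fewer of these genes than the pools of the later stages. The oocyte and 1-cell pools had none of Prdx3, Prdx6, Gpx1, Gpx4 or Cat, the oocyte pool none of Sod1 either, and both had Sod2, Prdx1, Prdx2 and Txn1. The 2-cell pool held Prdx3, Prdx6, Gpx1 and Gpx4.

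Another 53 genes of the same chemistry were followed, of which 44 had a merged transcript, and all 44 were tested. These lists too were chosen with earlier results of these data known, so their counts are a description. From oocyte to blastocyst 22 of them rose and 5 fell, which is 61.4% called beside 41.8% of all genes. From the 1-cell to the 2-cell stage 11 rose and 2 fell (29.5% beside 13.9%), and from the 4-cell to the 8-cell stage 7 rose and 11 fell (40.9% beside 34.2%). From the 8-cell stage to the blastocyst 2 rose (4.55% beside 3.38%), and 19 were higher and 2 lower in sperm than in the oocyte (47.7% beside 39.2%). From oocyte to 1-cell and from 2-cell to 4-cell none was called by limma, with 3 at an unadjusted p under 0.05 in each.

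Among the other peroxidases and dismutases, 5 of 8 rose from oocyte to blastocyst. The largest rise was that of Prdx4, the peroxiredoxin of the endoplasmic reticulum, which went from 0.192 and 0.493 TPM in the oocyte to 187 and 159 TPM at the 2-cell stage and 123 and 166 TPM in the blastocyst. It rose by 6.73 ± 0.89 from 1-cell to 2-cell (limma, adjusted p = 0.00342). Gpx2 rose from the 4-cell to the 8-cell stage by 2.45 ± 0.38, and Gpx3, the secreted glutathione peroxidase, fell by 2.71 on the log2 scale in the same step, from 77.6 and 64.1 to 6.08 and 15.9 TPM. Both lost the call with equal spread for all stages (adjusted p = 0.194 and 0.109).

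In the thioredoxin and glutaredoxin system 6 of 14 genes rose and 3 fell from oocyte to blastocyst. Glrx3, a glutaredoxin, had the largest rise (6.98 ± 0.91) and Txnip, the protein that binds thioredoxin, the largest fall (-4.93 ± 0.76), from 56.0 and 88.6 to 2.72 and 0.486 TPM. Sesn2, a sestrin, rose most from 1-cell to 2-cell (6.73 ± 1.09), and Glrx fell most in that step (-4.18 ± 1.20) and rose from the 8-cell stage to the blastocyst (4.55 ± 0.82), to 265 and 52.5 TPM. Sesn2 was lost without the second 2-cell library (adjusted p = 0.0701), Glrx in the earlier step without the second 1-cell (0.0981), first 2-cell (0.292) or second 2-cell library (0.118), and Glrx in the later step without the first (0.131) or second blastocyst library (0.0551). Srxn1, the sulfiredoxin that restores overoxidized peroxiredoxins, rose from the 4-cell to the 8-cell stage by 1.51 ± 0.31, to 1.33 and 4.18 TPM. Its change was 0.93 without the second 8-cell library, and its adjusted p 0.215 with equal spread. The reductase of thioredoxin in the cytosol, Txnrd1, measured 8.10 and 45.9 TPM in the oocyte and 26.3 and 23.9 TPM in the blastocyst (adjusted p = 0.782).

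Of the genes of glutathione synthesis and use, 4 of 10 rose and 1 fell from oocyte to blastocyst. Gsto1, a glutathione S-transferase, rose by 4.36 ± 0.37 from the 4-cell to the 8-cell stage and by 8.74 ± 0.83 from the oocyte to the blastocyst, where it reached 615 and 465 TPM. Gstm5 fell by 4.61 on the log2 scale between the latter stages, with an adjusted p of 0.0608 without the first oocyte library. Gsr, which regenerates glutathione, rose by 3.60 ± 1.03 (limma, adjusted p = 0.0127), with 2.52 and an adjusted p of 0.122 after quantile normalization. Of the genes that supply NADPH, 3 of 5 rose and 1 fell, with Idh2, the mitochondrial isocitrate dehydrogenase, at 7.14 ± 0.86 and G6pdx at -2.59 ± 0.99. G6pdx was lost without the first oocyte library (adjusted p = 0.318), the first blastocyst library (0.0735) or the second (0.262).

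Of 7 regulators and targets of the oxidative stress response, 4 rose from oocyte to blastocyst, the most Bach1, a repressor of such genes (3.53 ± 0.90, and an adjusted p of 0.0737 without the first blastocyst library). Nfe2l2, the factor that activates them, measured 6.46 and 1.34 TPM in the oocyte, 3.39 and 32.2 TPM at the 2-cell stage and 24.4 and 7.22 TPM in the blastocyst, with no call (adjusted p = 0.121). Hmox2, a heme oxygenase, rose from 1-cell to 2-cell (3.71 ± 1.11, adjusted p = 0.0409) and fell from the 4-cell to the 8-cell stage (-1.97 ± 0.41, adjusted p = 0.00217). The rise was lost without the second 1-cell (adjusted p = 0.116), first 2-cell (0.105) or second 2-cell library (0.358), and the fall with equal spread for all stages (0.285).

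Nfe2l2 acts through the antioxidant response element, whose core is written TGACNNNGC. Windows of 300 bases around the RefSeq starts were searched on both strands. The core was present in 2 of the 12 windows of the antioxidant genes, those of Sod1 and Prdx1, and in 12.4% of 32851 windows of all genes. Of the 10 genes 9 had a window and Prdx6 had none. Both matches are on the minus strand and are printed on the plus strand with the match in capitals, from chr16:90220696-90220724 for Sod1 and chr4:116685456-116685484 for Prdx1 (RefSeq, GRCm38.p6).
Sod1: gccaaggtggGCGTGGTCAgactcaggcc
Prdx1: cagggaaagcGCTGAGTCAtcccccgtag
A match is a description of letters and not of binding, and neither gene passed a test between embryonic stages.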

How the data were processed

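Short-read RNA-seq of 14 libraries (7 stages, 2 each) and 7 long-read pools were used. The authors collapsed and merged the long-read transcripts (GMAP on mm10, Cuffmerge) and quantified the short reads against them with Salmon, and the deposited values are TPM. The submitters' processing notes name Cufflinks, GSNAP, STAR and Salmon. The deposited transcript files hold exon coordinates on mm10. No per-sample column was left unmapped (0), and no read depth was used, since TPM carries none.

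TPM were summed per GENCODE vM21 gene, filtered (1 TPM or more in 2 libraries) and tested as log2(TPM + 1) with limma 3.58.1 in R 4.3.3, weighted by the spread of each stage, over the 12 libraries from oocyte to blastocyst, or the 14 for sperm. P-values were adjusted by Benjamini-Hochberg over all features at 0.05. On this scale changes of low genes are understated. No source states that the libraries of a stage came from separate animals, so p-values measure the spread between these libraries. An exact permutation test of 2 against 2 cannot reach 0.05. Python 3.11.15, numpy 2.4.6, pandas 2.3.3 and matplotlib 3.10.9 were used. The model was tested on simulated data with the same spread for all genes of a stage and 200 changed genes. With a log2 change of 2 it recovered 1, 0, 0, 133 and 6 of them in the adjacent steps, in order. With a change of 4 it recovered 176, 108, 131, 200 and 191. A step without a call therefore does not show that a gene was unchanged.

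The members, gene lists and markers were chosen with earlier results of these data known. Named genes were all members, the largest called rise and fall of each list, merged transcripts with 10% or more of a member in a stage, and the 3 genes most like Sod2. Defining genes of the lists (Txnrd1, Nfe2l2 and Gsr) were picked with their values known.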

Additional observations from a re-analysis of the deposited data

How the results depend on the processing

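Alternatives were a pseudocount of 0.1, no filter, quantile normalization, equal spread for all stages, only the 4 libraries compared, multi-exon transcripts only, each library left out, and a replicate block. Replicate numbers did not pair the libraries (correlations of deviations from -0.494 to 0.442 over 15 pairs of stages, 4 of them over 0.1), and with the replicate block the antioxidant genes called stayed at 0, 1, 0, 4 and 0 in the adjacent steps, 7 from oocyte to blastocyst and 5 in sperm, with 17 of 17 calls kept. From 1-cell to 2-cell the count of 1 became 2 with a pseudocount of 0.1, 3 with equal spread and 2 with multi-exon transcripts, and ranged from 0 to 2 with a library left out. From 2-cell to 4-cell 0 became 1 (Prdx3) with quantile normalization and 1 with equal spread. From 4-cell to 8-cell 4 became 1 with equal spread, 5 with quantile normalization or multi-exon transcripts (Sod2 gained), and ranged from 2 to 4 with a library left out. In sperm 5 became 3 with quantile normalization, losing Prdx6 and Cat (adjusted p = 0.0513 and 0.1), and ranged from 2 to 5 with a library left out. The 8 transcript calls ranged from 6 to 8 with a library left out and from 7 to 11 under the other alternatives. With equal spread they were 10, but 5 of the 6 from 4-cell to 8-cell were lost and the calls over all transcripts in that step went from 6269 to 633. The short share of Sod2 with 1 TPM added to each side was 96% in the oocyte and 97.4% at the 1-cell stage, against 100%. With TPM over the transcripts of the own stage it was 100% at the 2-cell stage, against 9.87%, and 0% at the 4-cell stage, against 24.5%, where each pool holds 1 of the 2 exon forms. The other pools hold neither and gave no value. Over all genes, the count called changed with equal spread (from 1873 to 4025 from 1-cell to 2-cell, 2 to 356 from 2-cell to 4-cell, 4602 to 505 from 4-cell to 8-cell and 455 to 268 between the 8-cell stage and the blastocyst), and quantile normalization gave 813 in the last of these steps and 285 between the 2-cell and 4-cell stages. From oocyte to 1-cell 456 became 279 with a pseudocount of 0.1, 143 with multi-exon transcripts and 1 without the second oocyte library. From 8-cell to blastocyst it was 6 with the 4 libraries alone. The cause of these differences was not tested. Quantile normalization changed the share of all calls that were higher from 91.8 to 48.3% (1-cell to 2-cell), 24.6 to 51.7% (4-cell to 8-cell), 40.4 to 58.4% (8-cell to blastocyst), 64.3 to 48.2% (oocyte to blastocyst) and 72.2 to 50% (sperm), and changed the sign of 6 of the 70 member changes, 0 of them called.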
